A study of Mus musculus with 22 samples.

Results

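The constant enhancers between genes are 805 regions of the mouse genome that carried an H3K27ac peak in all 10 peak lists of an erythroid differentiation time course and lay outside protein-coding genes. They were found by merging the 10 H3K27ac lists where peaks touch, which gave 24299 regions, of which 13217 had a peak in every list. Of these, 5433 held no transcription start site (TSS) of a protein-coding transcript, 2200 of those overlapped no peak in any of the 10 H3K4me3 lists, and 805 of those overlapped no protein-coding gene body. The members were therefore chosen by the presence of H3K27ac peaks, the absence of H3K4me3 peaks and the gene annotation. The complete loss of a peak at any time point could not occur among them, and "constant" here refers to the presence of a peak, not to its size. Enhancer activity was not measured, and the word enhancer stands for distal H3K27ac without H3K4me3.

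The cells were G1E-ER4 (G1ER), a mouse erythroid progenitor line that lacks Gata1 and carries a transgene of GATA1 fused to the ligand-binding domain of the estrogen receptor, so that β-estradiol switches GATA1 on and the cells differentiate. All groups shared the line, which is 1 clone, the missing Gata1 gene, the transgene, and a medium with stem cell factor (SCF) and erythropoietin. The 5 groups were untreated cells (0 h) and cells after 2, 6, 12 and 24 h of β-estradiol, with 2 ChIP-seq peak lists per group for H3K27ac and for H3K4me3, and 1 list each at 0 and 24 h for the insulator protein CTCF. Nothing in the labels says that the paired lists came from separate cultures. The paper describes the ChIP-seq replicates of the time course as independent experiments, without stating whether the cultures were separate. The p-values therefore measure only the spread between these lists, and how much of it is technical is unknown. A mark present in fewer cells and less of the mark per cell cannot be told apart in bulk ChIP-seq.

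H3K27ac is deposited by the acetyltransferases p300 and CBP and marks active promoters and enhancers, whereas H3K4me3 is concentrated at promoters. Erythroid enhancers are commonly bound by GATA factors at the sequence AGATAA, and by a complex of GATA1, TAL1, LMO2 and LDB1 at a composite of an E-box and a GATA sequence. CTCF binds insulators and the anchors of chromatin loops, also between genes.

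To show what such regions look like, windows around the GATA motifs of 11 members are given from the plus strand of GRCm38 (mm10), 5′ to 3′. Capitals mark AGATAA, its reverse complement TTATCT, or the whole composite, which is a CTG placed 7 or 8 bases before AGATAA or AGATAG, on either strand. Each member is called by the gene of its nearest protein-coding TSS, which is not evidence that it acts on that gene. The globin, Lmo2, Ikzf1 and Klf3 members lie near regulators and products of red cells, those of Kit and Slc22a3 had shorter H3K27ac peaks at 24 h than at 0 h, those of Entpd4, Rpia and Olfm1 had longer ones, and the Syf2 member had the highest scores of all members.
Hbb-y (chr7:103859212-103859307): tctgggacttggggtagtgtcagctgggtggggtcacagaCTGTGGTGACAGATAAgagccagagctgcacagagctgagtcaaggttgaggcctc
Lmo2, 29.4 kb upstream (chr2:103926250-103926335): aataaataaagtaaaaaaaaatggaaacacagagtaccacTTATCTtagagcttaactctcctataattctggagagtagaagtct
Ikzf1 (chr11:11657245-11657341): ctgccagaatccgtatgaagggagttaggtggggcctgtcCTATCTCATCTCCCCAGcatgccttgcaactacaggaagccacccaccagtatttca
Klf3, 109 kb upstream (chr5:64690860-64690993): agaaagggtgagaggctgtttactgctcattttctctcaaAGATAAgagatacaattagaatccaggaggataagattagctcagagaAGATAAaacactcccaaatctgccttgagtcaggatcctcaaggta
Klf3, 211 kb upstream (chr5:64588065-64588161): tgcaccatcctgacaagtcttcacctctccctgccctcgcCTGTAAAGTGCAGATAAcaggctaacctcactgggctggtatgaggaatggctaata
Kit (chr5:75503589-75503674): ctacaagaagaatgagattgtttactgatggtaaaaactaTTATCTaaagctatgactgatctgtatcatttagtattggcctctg
Slc22a3 (chr17:12511742-12511838): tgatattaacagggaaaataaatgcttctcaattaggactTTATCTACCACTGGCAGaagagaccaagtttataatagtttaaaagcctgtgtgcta
Entpd4 (chr14:69320960-69321045): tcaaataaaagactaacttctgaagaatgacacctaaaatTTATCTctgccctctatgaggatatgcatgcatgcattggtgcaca
Rpia (chr6:70727534-70727630): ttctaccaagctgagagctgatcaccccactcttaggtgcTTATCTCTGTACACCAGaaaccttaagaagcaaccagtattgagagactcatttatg
Olfm1 (chr2:28141704-28141813): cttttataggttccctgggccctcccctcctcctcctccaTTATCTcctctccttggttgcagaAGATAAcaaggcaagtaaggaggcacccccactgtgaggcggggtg
Syf2 (chr4:134982022-134982149): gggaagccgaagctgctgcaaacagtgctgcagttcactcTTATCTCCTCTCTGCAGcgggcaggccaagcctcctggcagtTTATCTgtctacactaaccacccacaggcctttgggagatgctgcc

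The Hbb-y, Klf3 (211 kb), Slc22a3, Rpia, Syf2 and Ikzf1 windows each hold a composite match, and the others hold AGATAA alone. A match is a description of the letters and not a measured binding site. No binding data for GATA factors were analysed here.

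The members scored low among the regions with a peak in every list, and so did constant enhancers inside genes. Their mean covered length, the number of bases of a region under H3K27ac peaks averaged over the 10 lists, ranged from 401 to 7810 bp with a median of 2048 bp. The highest peak score in a region was ranked within each list among the 13217 regions with a peak in every list, and this rank as a percentile had a median of 17.8 over the members (quartiles 10.3 and 29.9, range 1.15 to 79.3). Just outside the threshold, 242 regions that met the rest of the rule had a peak in 9 lists. Their median covered length where present was 1464.7 bp and their median score 101.3, against 2048.2 bp and 157.9 for the members. Of these 242, 80 lacked a peak only in replicate 2 and 45 only in replicate 1 at 24 h, against 5 to 26 for each of the other 8 lists. The H3K27ac lists held 17247 to 18333 peaks, and the smallest was replicate 2 at 24 h. They give no read counts, so the depth behind each value is unknown. The members lay on every chromosome, from 75 on chromosome 2 and 67 on chromosome 1 to 18 on chromosome 14 and 1 on chromosome Y.

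The label of the cells was checked with H3K4me3 peaks within 2 kb of the TSS of marker genes. Of 9 matched erythroid markers, 6 had a peak in all 10 H3K4me3 lists, among them Klf1, Slc4a1 and Epor, while Alas2 had one in 9 lists and Tal1 and Gata1 in none. All 10 lists had such a peak at none of 7 myeloid, 7 lymphoid and 7 mast cell markers, at none of 7 genes of liver, neuron, muscle and epithelium, and at 1 of 7 megakaryocyte markers (Itga2b). Some of these markers had a peak in part of the lists, namely the neural and eye factor Pax6 in 9, the mast cell genes Ms4a2, Cpa3 and Hdc in 9, 7 and 7, and the megakaryocyte genes Itgb3 and Gp9 in 4 and 3.

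The GATA motif was denser in the members than in the DNA around them. AGATAA occurred 2172 times, or 0.881 times per kb (95% Poisson interval 0.844 to 0.919, counting error only), against 0.635 per kb in flanks of equal length 5 kb beyond each end. Its letters in reverse order, AATAGA, which share its base composition, occurred 0.588 times per kb in the members and 0.613 in the flanks. In the middle 1 kb the density of AGATAA was 1.13 per kb, and outside repeats it was 0.958 per kb. At least 1 copy was found in 86.5% of members, and 109 members had none, 169 had 1, and 1 had 11. The share was 88.5% in constant enhancers inside genes, 76.3% in constant regions with a TSS, and 73.5% in regions between genes with a peak in 2 to 9 lists, which differ in median length (2751 bp for the members, then 3077, 3292 and 1412 bp). Per kb the order was another, with 0.839 copies in enhancers inside genes, 0.523 in regions with a TSS and 1.03 in the regions with 2 to 9 lists, above the members.

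**Figure D1:**
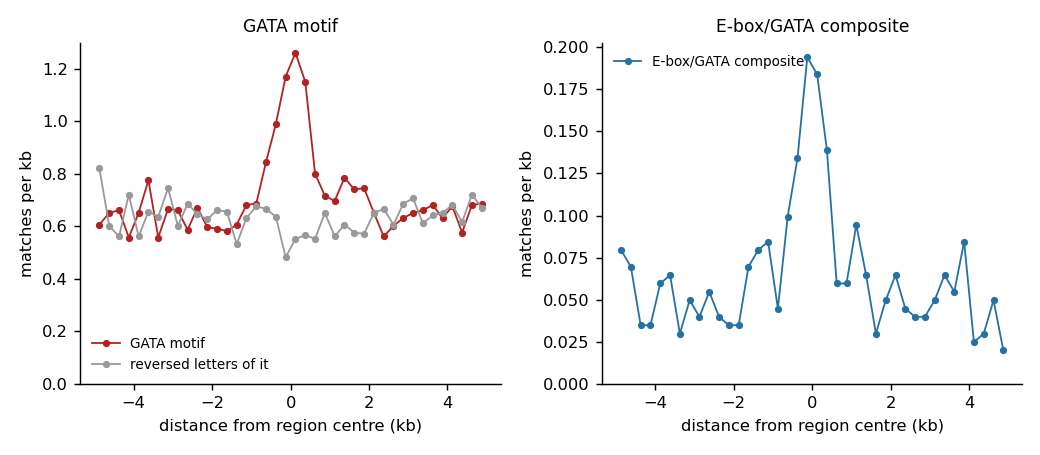
Matches per kb (vertical axis) of AGATAA and its reversed letters (left) and of the E-box/GATA composite (right) over the 805 members, in bins of 250 bp, against the distance in kb from the region centre (horizontal axis). AGATAA reached 1.26 per kb beside the centre and the composite 0.194, while the reversed letters stayed at or below 0.820 in every bin.

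The composite was the motif with the largest ratio between members and flanks, at 0.10 matches per kb in the members (247 matches) and 0.0430 in the flanks. In the middle 1 kb its density was 0.161 per kb. It was present in 214 members, or 26.6%, and in 29.0% of constant enhancers inside genes, 22.1% of constant distal regions with H3K4me3, 14.2% of constant regions with a TSS, and 16.3% of the shorter regions between genes with 2 to 9 lists, where its density was 0.111 per kb. Other motifs differed less from the flanks, searched on both strands. The ETS core AGGAAG occurred 1.78 times per kb in members against 1.61 in flanks, the RUNX core TGTGGT 0.908 against 0.828, the KLF motif CCNCACCC 0.399 against 0.358, the AP-1/NFE2 motif TGANTCA 0.395 against 0.334, and the E-box CAGCTG 0.534 against 0.472. The CTCF core AGGGGGCG was rare, with a match in 2.73% of members and 0.00933 matches per kb against 0.0144 in flanks. The motifs share letters with each other at some sites, and no test was run over regions. GC content was 44.6% (flanks 44.1%), the observed over expected ratio of CpG was 0.182, against 0.508 in constant regions with a TSS, and 27.2% of bases were masked as repeats (flanks 32.3%).

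Members lay far from promoters. The median distance from a region's edge to the nearest protein-coding TSS was 28.2 kb (quartiles 12.1 and 69.8 kb, maximum 1398 kb), with 17 members within 2 kb, 169 within 10 kb and 143 beyond 100 kb. The median was 17.2 kb for constant enhancers inside genes and 30.1 kb for regions between genes with a peak in 2 to 9 lists. The exclusion of gene bodies by the rule acts on this distance, so the difference from enhancers inside genes is not an independent result. At that nearest TSS, 470 members (58.4%) had an H3K4me3 peak within 2 kb in all 10 lists and 288 (35.8%) had none in any. The corresponding share in all 10 lists was 51.4% for constant enhancers inside genes, 54.4% for regions between genes with a peak in 2 to 9 lists, and 43.6% over 1 TSS of each of 21901 protein-coding genes.

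**Figure D2:**
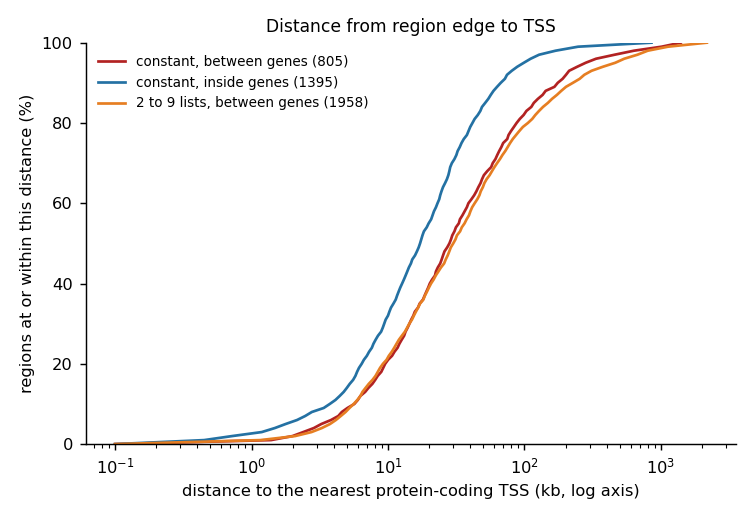
Cumulative share of regions in percent (vertical axis) against the distance from the region's edge to the nearest protein-coding TSS in kb (horizontal axis, log scale) for members, constant enhancers inside genes and regions between genes with 2 to 9 lists. The curve of the members runs with that of the other regions between genes and to the right of enhancers inside genes, with medians of 28.2, 30.1 and 17.2 kb.

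Most members had no other member nearby. Another member lay within 10 kb of 75 members (9.32%) and within 50 kb of 203 (25.2%). For the wider distance the share was 30.5% of 1395 constant enhancers inside genes and 37.5% of 1958 regions between genes with 2 to 9 lists. Gaps were measured only within a class, and the classes differ in number. Nearness to H3K27ac regions of other classes was not measured. Joining members with gaps of at most 50 kb gave 602 lone members, 70 pairs, 10 runs of 3, 7 runs of 4 and 1 run of 5. That run lay at the genes of the chemokine receptors Ccr1 and Ccr1l1 on chromosome 9 and spanned 72.1 kb. The members were nearest to 672 genes, of which 572 had 1 member. Zfp608, a zinc finger gene, had the most with 6 members (103 to 418 kb away), followed by Ube2e3, a ubiquitin-conjugating enzyme, with 5 (25.4 to 336 kb). Gm10260, Myc, Nabp1, Tnp1, Tomm20 and Zfp36l1 had 4 each. The body of a long noncoding RNA gene overlapped 139 members (17.3%, against 5.02% of constant enhancers inside protein-coding genes and 15.1% of the regions with 2 to 9 lists), and 26 members (3.23%) held a TSS of one.

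CTCF peaks overlapped members at both 0 and 24 h in 159 cases, or 19.8% (95% Wilson interval 17.1 to 22.6, counting error only). A CTCF peak was found only at 0 h in 14 members, only at 24 h in 32, and at neither time in 600. The 24 h list was the longer of the CTCF lists (41473 against 33193 peaks). With equal numbers of top-scoring peaks from both, 14 members had CTCF only at 24 h and 27 only at 0 h, so the direction of this small difference turned with the number of peaks. The share with CTCF at both times was 16.5% in constant enhancers inside genes, 13.8% in regions between genes with 2 to 9 lists, 30.2% in constant distal regions with H3K4me3, and 33.1% in constant regions with a TSS. These classes differ in length, and per kb of region the number with a CTCF peak at 24 h was 0.0774 in the members against 0.108 in the regions with 2 to 9 lists, the opposite order. There was 1 CTCF list per time, so no test was made. The 6 members with the highest CTCF scores at 24 h were those of Ppp6c, the catalytic subunit of a serine/threonine phosphatase (597 at 0 h and 1301 at 24 h), Sync (572 and 1030), Gdf5 (329 and 708), Dapp1 (396 and 682), Emc10 (285 and 602) and Tex101 (261 and 600). They were picked by the score at 24 h, and the whole list scored higher at that time (median 150.0 against 119.8 at 0 h), so nothing is read from the order of these scores.

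Over the time course, the mean covered length of the members was lowest at 24 h. It was 2366 and 2256 bp in the 2 lists at 0 h, 2295 and 2395 bp after 2 h, 2342 and 2383 bp after 6 h, 2308 and 2337 bp after 12 h, and 2190 and 2036 bp after 24 h. Both lists at 24 h lay below both lists of every earlier time. In constant regions with a TSS the same lists gave 2980 and 2877 bp at 0 h against 3199 and 3027 bp at 24 h, so the values at 24 h lay above those at 0 h. In constant enhancers inside genes they were 2415 and 2321 bp at 0 h against 2571 and 2364 bp at 24 h, which overlap. In regions between genes with 2 to 9 lists the means were also lowest at 24 h, with 748 and 672 bp at 0 h against 533 and 443 bp at 24 h. Those means count a missing peak as 0 bp. Where a peak was present, the median there was 1071 and 1035 bp at 0 h against 1114 and 1009 bp at 24 h, which overlap. The members' median score percentile was 19.6 and 18.8 at 0 h against 16.4 and 16 at 24 h. The difference between classes was not tested.

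**Figure D3:**
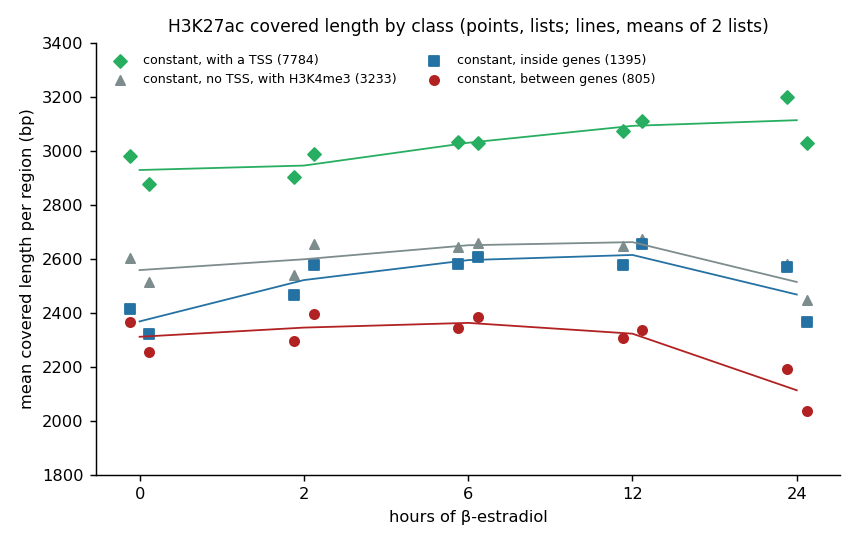
Mean covered length per region in bp (vertical axis, which does not start at 0) in each H3K27ac list (points) and the mean of the 2 lists (lines) against hours of β-estradiol (horizontal axis, not to scale), for 4 classes of constant regions. The points of the members are at 2366 and 2256 bp at 0 h and at 2190 and 2036 bp at 24 h, whereas those of regions with a TSS are higher at 24 h than at 0 h.

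Covered length was then compared per region with limma over the 21011 regions that had peaks in 2 or more lists, on log2(bp + 200), and a region was called at a Benjamini-Hochberg adjusted p below 0.05. All 805 members were tested, and 22 were longer and 55 shorter at 24 h than at 0 h. That is 2.73% and 6.83% of members, beside 3.30% and 3.02% of all regions tested, and beside 2.48% and 2.03% of the regions with a peak in all 10 lists. Constant enhancers inside genes gave 5.30% longer and 3.51% shorter, and constant distal regions with H3K4me3 2.23% and 3.80%. Regions between genes with 2 to 9 lists gave 3.58% and 6.03%, close to the members. In that class a missing peak counted as 0 bp, so a call can reflect the absence of a peak. The median log2 difference was -0.12 over the members, with 65.2% below 0, and 0.03 over all regions with a peak in every list. At an unadjusted p below 0.05, 73 members were longer and 164 shorter (9.07% and 20.4%, beside 11.3% and 9.82% of all regions). These shares were not tested against each other, and the rule limits how short a member can become.

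The calls depended on single lists at 0 and 24 h and on the lists in the fit. With only the 4 lists at 0 and 24 h in the fit, 9 members were longer and 28 shorter, or 1.1% and 3.48%, beside 5.02% and 5.27% of all regions, so that the share of shorter members was then below that of all regions. Without either list at 24 h, many fewer members were called longer, and fewer of all regions were as well. Without either list at 0 h, many fewer members were called shorter, and again fewer of all regions. Each such fit has only 1 list at that time. In each of the 10 fits that left out a list, more members were called shorter than longer. The smallest list, replicate 2 at 24 h, had the lowest mean covered length. Without it, fewer members but more of all regions were called shorter. The part of list size in the calls was not tested beyond this.

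More members were called at 24 h than at any earlier time, and so were more of all regions (3.30% longer and 3.02% shorter at 24 h). At 2 h, 5 members were longer and 2 shorter than at 0 h (all regions 1.09% and 0.785%), at 6 h 4 and 2 (1.37% and 0.700%), and at 12 h 10 and 6 (1.76% and 0.990%). The median log2 difference from 0 h over the members was 0.01, 0.03 and 0.01 at these times. A test of all differences from 0 h together (moderated F) called 41 members, or 5.09%, beside 5.61% of all regions. Without replicate 2 at 0 h it called fewer members but more of all regions. The mean covered length of the 55 shorter members was 3450 and 3300 bp at 0 h, 3022 and 3086 bp after 2 h, 2709 and 2776 bp after 6 h, 2520 and 2541 bp after 12 h and 1727 and 1663 bp at 24 h. That of the 22 longer members was 1643 and 1711 bp at 0 h, 2419 and 2578 bp after 2 h, and 3260 and 3169 bp after 24 h. These members were picked by the difference between 0 and 24 h, so the values at those times follow from the choice. The values at 2 to 12 h lay between the ends in both sets.

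Among the shorter members was one 69.3 kb upstream of Kit, the receptor of SCF. It lay at chr5:75500668-75505577 and covered 4812 and 3767 bp at 0 h, 3264 and 3330 bp after 2 h, 3718 and 3655 bp after 6 h, 2258 and 2484 bp after 12 h, and 1063 and 1064 bp after 24 h. The lists at 24 h were the lowest and did not overlap those of any other time. The log2 difference was -1.82 (SE 0.11, adjusted p = 3.26e-04), and the call held in each fit that left out 1 list, with an adjusted p of at most 0.00252. Its score rank, by contrast, did not pass the test (difference -0.21 on the normal score scale, SE 0.26, adjusted p = 0.749). A second Kit member, 169 kb downstream at chr5:75744000-75745798, had 1462 and 1110 bp at 0 h against 883 and 1115 bp at 24 h, with overlapping lists (log2 difference -0.31, SE 0.21, adjusted p = 0.504).

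The member 2.54 kb upstream of Slc22a3, an organic cation transporter, lay at chr17:12510240-12515623 and had the smallest adjusted p of the shorter members named here. It covered 5135 and 5313 bp at 0 h, 4287 and 4130 bp after 2 h, 4228 and 4487 bp after 6 h, 3833 and 3891 bp after 12 h, and 1968 and 1735 bp after 24 h. The largest step was between 12 and 24 h, and the lists at 0 and 24 h were far apart (log2 difference -1.40, SE 0.07, adjusted p = 1.95e-04). Its sequence window holds a composite match, and CTCF peaks overlapped it at both times (scores 83.3 and 91.2).

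At the member upstream of 1700015G11Rik, an uncharacterised gene, the lengths were 4470 and 5037 bp at 0 h, 3211 and 3617 bp after 2 h, 2122 and 2054 bp after 6 h, 2174 and 1783 bp after 12 h, and 1079 and 1319 bp after 24 h. Here both lists at 2 h already lay below those at 0 h (log2 difference at 24 h -1.83, SE 0.13, adjusted p = 5.56e-04). Among the other shorter members, that of Nat1, an arylamine acetyltransferase, covered 2589 and 2190 bp at 0 h against 552 and 678 bp at 24 h (log2 difference -1.67, SE 0.19, adjusted p = 0.00326). Its lists at 2, 6 and 12 h ranged from 1512 to 2246 bp, so the low values were confined to 24 h among the lists analysed. The member downstream of Rsl24d1, a ribosome assembly factor, covered 4427 and 4397 bp at 0 h against 1969 and 1446 bp at 24 h (log2 difference -1.29, SE 0.17, adjusted p = 0.00575).

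**Figure D4:**
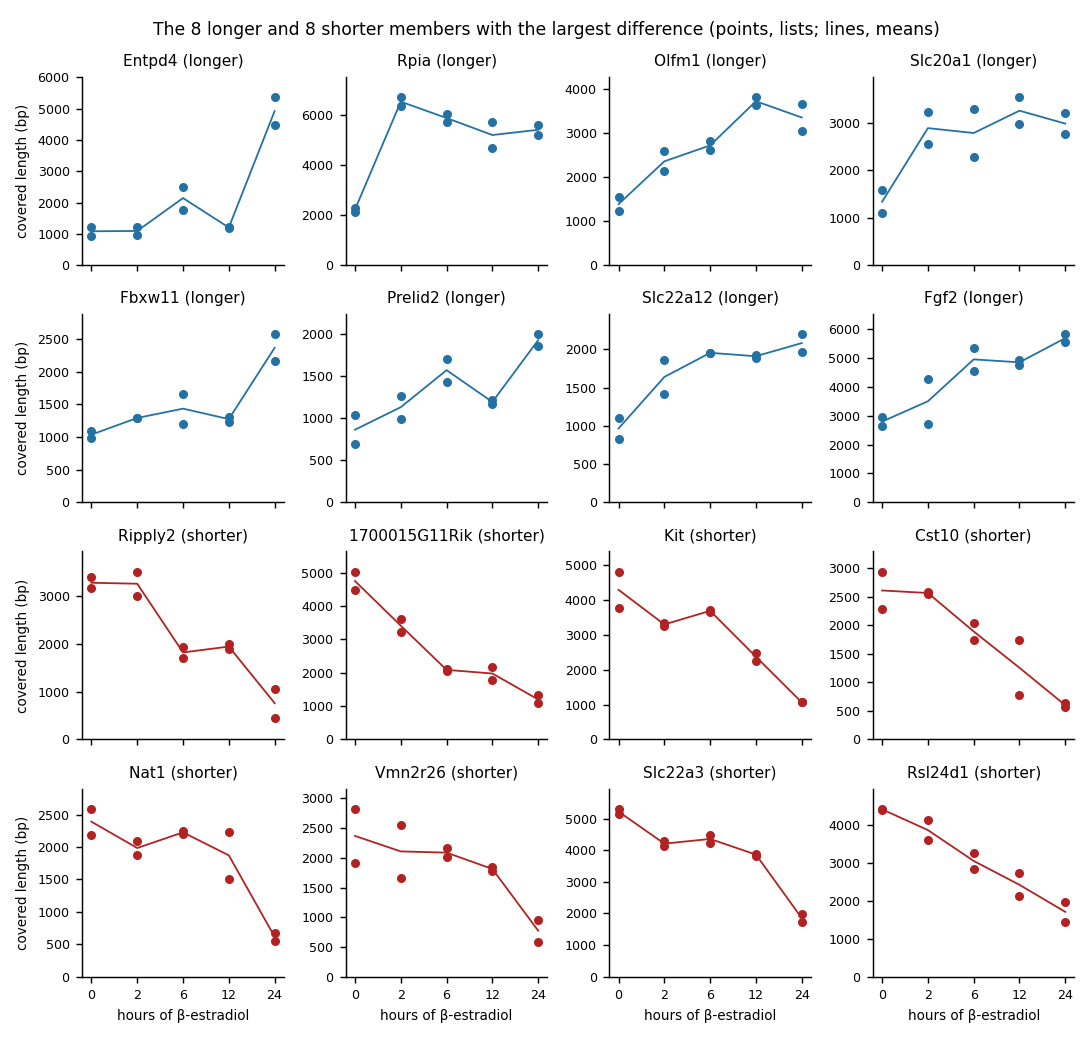
Covered length in bp (vertical axes, from 0) in each H3K27ac list (points) and the mean of 2 lists (lines) against hours of β-estradiol (horizontal axes, not to scale), for the 8 longer and 8 shorter members with the largest log2 difference. The Kit member falls from 4812 and 3767 bp to 1063 and 1064 bp, the Rpia member reaches 6691 and 6342 bp by 2 h, and the Entpd4 member reaches 5367 and 4483 bp only at 24 h.

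The remaining 3 of the 8 shorter members rested more on single lists. Ripply2, a repressor of somite segmentation genes, went from 3395 and 3163 bp to 1063 and 458 bp (log2 difference -1.93, adjusted p = 0.00863, and 0.0575 without replicate 1 at 0 h). Cst10, a cystatin, went from 2943 and 2281 bp to 632 and 567 bp (-1.81, adjusted p = 0.0186, and 0.109 without replicate 1 at 0 h). The member of the vomeronasal receptor gene Vmn2r26 went from 2827 and 1912 bp to 586 and 960 bp (-1.40, adjusted p = 0.0326, and 0.152 without replicate 1 at 0 h). In all 3 the lists at 0 and 24 h did not overlap. Of the 10 fits that left out a list, Ripply2 passed in 9, Cst10 in 6 and Vmn2r26 in 4. Kit, Slc22a3, 1700015G11Rik, Nat1 and Rsl24d1 passed in all 10.

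Of the longer members, that of Entpd4, a nucleoside diphosphatase of the Golgi, had the largest difference. It lay at chr14:69317748-69323148, 14.0 kb upstream, and covered 1231 and 933 bp at 0 h, 962 and 1222 bp after 2 h, 1775 and 2513 bp after 6 h, 1203 and 1199 bp after 12 h, and 5367 and 4483 bp after 24 h. Both lists at 24 h stood above all 8 others (log2 difference 2.00, SE 0.21, adjusted p = 0.00221). Its score percentile was 0.919 and 2.36 at 0 h against 8.10 and 21.1 at 24 h, a difference that did not pass the test (1.07 on the normal score scale, SE 0.48, adjusted p = 0.289).

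The member 59.5 kb downstream of Rpia, the ribose-5-phosphate isomerase of the pentose phosphate pathway, changed early. At chr6:70725759-70732770 it covered 2136 and 2291 bp at 0 h, 6691 and 6342 bp after 2 h, 5693 and 6033 bp after 6 h, 5705 and 4667 bp after 12 h, and 5597 and 5192 bp after 24 h. The lists at 0 h were below all others (log2 difference 1.21, SE 0.10, adjusted p = 0.00108). Its score moved the other way, from percentiles of 30.4 and 25.2 at 0 h to 7.16 and 7.40 at 24 h, a difference that did not pass the test (-0.87, SE 0.34, adjusted p = 0.227).

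The member 48.9 kb upstream of Olfm1, a secreted glycoprotein, was longer and also higher in score rank. At chr2:28140079-28144122 it covered 1220 and 1549 bp at 0 h, 2130 and 2583 bp after 2 h, 2815 and 2622 bp after 6 h, 3812 and 3632 bp after 12 h, and 3664 and 3042 bp after 24 h (log2 difference 1.17, SE 0.14, adjusted p = 0.00439). Its percentile was 4.16 and 4.57 at 0 h against 36.6 and 41.6 at 24 h (rank difference 1.43, SE 0.19, adjusted p = 0.00677). On both measures the lists at 0 h were the 2 lowest, and both calls held in all 10 fits that left out a list. Both were lost with only the lists at 0 and 24 h in the fit.

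The other 5 of the 8 longer members each lost the call in some of those fits. The member upstream of Fgf2, basic fibroblast growth factor, covered 2961 and 2630 bp at 0 h against 5816 and 5563 bp at 24 h (log2 difference 0.98, SE 0.19, adjusted p = 0.0331), with an adjusted p of 0.161 without replicate 2 at 0 h. Slc20a1, a sodium-phosphate cotransporter, had 1582 and 1089 bp against 3198 and 2767 bp (1.07, adjusted p = 0.0462, and 0.190 without replicate 2 at 0 h). Fbxw11, a substrate receptor of a ubiquitin ligase, had 976 and 1094 bp against 2157 and 2567 bp (1.05, adjusted p = 0.0144, and 0.0736 without replicate 2 at 24 h). For Prelid2 the log2 difference was 1.02 (adjusted p = 0.0378, and 0.142 without replicate 2 at 24 h), and for Slc22a12, a urate transporter, 0.98 (adjusted p = 0.0173, and 0.0856 without replicate 2 at 24 h). The lists at 0 h lay below those at 24 h in all 5. Of the 10 fits, Slc20a1 and Fgf2 passed in 2, Prelid2 in 3, and Fbxw11 and Slc22a12 in 8.

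Score rank gave a second measure of the same lists. limma on the normal score of the rank, over the 13217 regions with a peak in all lists, called 11 members higher and 36 lower at 24 h, or 1.37% and 4.47% of members beside 0.931% and 1.46% of all regions. Constant enhancers inside genes gave 3.37% and 2.80%. At an unadjusted p below 0.05, 84 members were higher and 165 lower (10.4% and 20.5%, beside 8.24% and 8.97% of all regions). Without either list at 0 h, most of the higher and most of the lower calls of members were lost. Without either list at 24 h, most of the higher calls and many of the lower were lost. The rank calls over all regions also fell strongly in each of these fits. Each such fit has only 1 list at that time.

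The length and rank calls met in part. Of the 55 shorter members, 18 were also lower in rank, and of the 22 longer members, 2 were also higher. The member of Cd2bp2 was shorter and higher in rank, chosen for mention after its values were seen, and none was longer and lower. In all, 77 members were called in length, 47 in rank and 103 in either, which leaves 702 called in neither. Both measures come from the same peaks and are not independent.

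**Figure D5:**
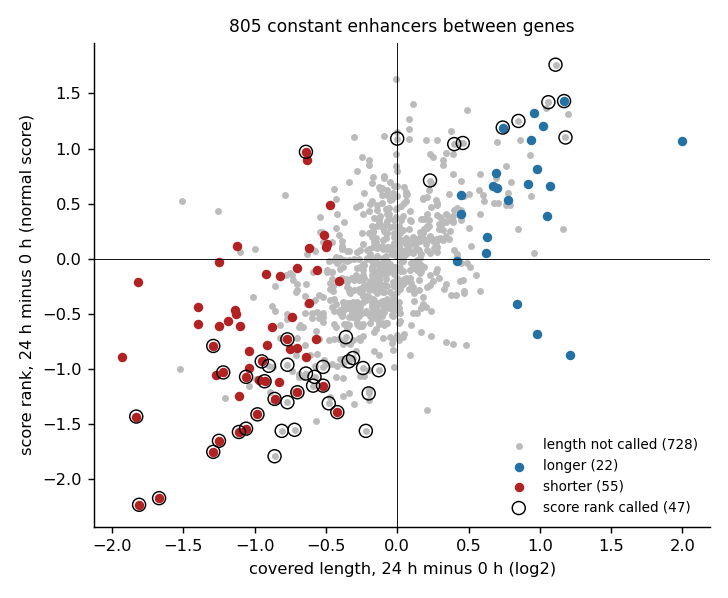
Difference between 24 h and 0 h in score rank (vertical axis, normal score) against that in covered length (horizontal axis, log2) for the 805 members, coloured by the length call and ringed where the rank was called. Most of the 55 shorter members lie at the lower left with the 36 called lower in rank, and 18 of them carry both calls.

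The rank calls with the largest difference included a member in the long noncoding RNA gene Pvt1, 202 kb downstream of Myc, a transcription factor that drives proliferation. At chr15:62189663-62192213 its percentile was 9.52 and 3.73 at 0 h, 10.9 and 17.0 after 2 h, 14.4 and 18 after 6 h, 25.2 and 26.7 after 12 h, and 37.7 and 39.2 after 24 h. The lists at 24 h were the 2 highest and those at 0 h the 2 lowest (rank difference 1.25, SE 0.20, adjusted p = 0.0171, and 0.0775 without replicate 2 at 0 h). Its length difference did not pass the test (0.85 on the log2 scale, SE 0.32, adjusted p = 0.191). The other 3 Myc members, at 41.1 to 241 kb, were called in neither measure.

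Sftpb, a surfactant protein, rose in rank by 1.76 (adjusted p = 0.0255, and 0.144 without replicate 1 at 24 h) and Ubash3b, a phosphatase that dampens tyrosine kinase signalling, by 1.42 (adjusted p = 0.0430, and 0.167 without replicate 1 at 24 h). Among the members lower in rank, that of Galnt10, an enzyme that starts mucin-type O-glycosylation, had percentiles of 41.9 and 36.5 at 0 h, 33.5 and 29.6 after 2 h, 24.7 and 27.9 after 6 h, 25.9 and 17.7 after 12 h, and 1.25 and 3.60 after 24 h. The lists at 24 h were the lowest (rank difference -1.75, SE 0.19, adjusted p = 0.00326), and the call held in all 10 fits that left out a list. Cst10 (-2.23, adjusted p = 0.0309), Nat1 (-2.17, adjusted p = 0.0135) and Hey2, an effector of Notch signalling (-1.79, adjusted p = 0.0445), were the other 3. Each of these lost the call without some lists, with adjusted p values of 0.157 and 0.0797 without replicate 2 at 0 h for Cst10 and Nat1, and 0.184 without replicate 1 at 0 h for Hey2. Of the 10 fits, Nat1 passed in 8, Myc in 7, Sftpb in 6, Cst10 in 4, and Ubash3b and Hey2 in 1.

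Other members held a high score or a great length throughout. The member 49.0 kb downstream of Syf2, a splicing factor, at chr4:134979909-134984642 had the highest mean percentile (79.3) and covered 4417 and 4200 bp at 0 h against 4439 and 4360 bp at 24 h. Its percentiles lay between 75.5 and 87.7 in the 10 lists, and CTCF peaks overlapped it at both times (scores 172 and 392). Next were the members of Csf2ra, a subunit of the GM-CSF receptor (mean percentile 77.6), Osbp (71.9), Pds5a, a regulator of cohesin (71.8), Hlx, a homeobox factor (71.5) and Xpnpep1 (70.5). None of these 6 was called in length or rank. The 6 longest were those of Tnp1 (mean 7810 bp), Usp12 (7519 bp), Ccr1 (7313 bp), Ptma (6978 bp), Nat3 (6799 bp) and Ccr1l1 (6592 bp). Of these, only the Ccr1 member was called, in rank by limma. Its percentile was 10.8 and 4.85 at 0 h against 35.2 and 37.0 at 24 h (difference 1.09, SE 0.23, adjusted p = 0.0388). This call was lost in most of the fits that left out a list. Its length was 7279 and 7303 bp at 0 h against 7271 and 7262 bp at 24 h.

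Of the globin, heme and iron genes, 1 of 29 matched was nearest to a member. That member lay 4.95 kb upstream of the embryonic β-like globin gene Hbb-y, on the side of the locus control region, at chr7:103858169-103863647, and held 7 AGATAA copies and 1 composite. It covered 5441 and 5042 bp at 0 h, 5358 and 5275 bp after 2 h, 5194 and 5479 bp after 6 h, 5235 and 5179 bp after 12 h, and 5296 and 5177 bp after 24 h. The lists overlapped at all times (log2 difference -0.00, SE 0.06, adjusted p = 1.0). Its percentile was 37.4 and 44.5 at 0 h against 62.8 and 63.7 at 24 h without overlap, and this difference did not pass the test (0.57, SE 0.16, adjusted p = 0.110).

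Erythroid and stem cell transcription factors were nearest to 12 members, which belonged to 6 of 40 genes (15.0%), beside 3.07% of all 21877 protein-coding genes. A share above that of all genes was not particular to this list. Every other list with a gene nearest to a member was also above it. Among them were the cytokine receptor list (4 of 25) and the mast cell and megakaryocyte markers (1 of 7 each). None of the 9 matched erythroid markers was nearest to a member. No test of the lists was made. None of the 12 was called in length (median log2 difference -0.14, and -0.12 over all members), and 1, the Myc member in Pvt1, was higher in rank. The member of Ikzf1, which encodes the lymphoid and erythroid regulator Ikaros, lay 25.2 kb upstream at chr11:11654995-11659784 with a mean percentile of 66.6 and covered 4638 and 3427 bp at 0 h against 3012 and 2873 bp at 24 h. The lists did not overlap, and the difference did not pass the test (log2 -0.42, SE 0.14, adjusted p = 0.141).

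Klf3, a repressor of the Krüppel-like family induced in red cells, had 3 members 109, 119 and 211 kb upstream. The nearest, at chr5:64689790-64694468, covered 4489 and 3948 bp at 0 h against 4240 and 3801 bp at 24 h, and the farthest, at chr5:64586674-64592393, covered 5373 and 4847 bp and 5173 and 5231 bp. In both the lists at 0 and 24 h overlapped. The third covered 1383 and 2446 bp at 0 h against 1264 and 1296 bp at 24 h, without overlap and without passing the test (log2 -0.47, SE 0.29, adjusted p = 0.451). Lmo2, the bridging subunit of the TAL1 and GATA1 complex, had 2 members. The one 29.4 kb upstream covered 2970 and 3188 bp at 0 h against 2439 and 2892 bp at 24 h (log2 -0.20, SE 0.09, adjusted p = 0.254). The one 75.1 kb upstream covered 1790 and 1299 bp at 0 h against 2064 and 2108 bp at 24 h, with its longest lists at 12 h (3186 and 2859 bp), and did not pass the test (0.40, SE 0.16, adjusted p = 0.226). The member 15.5 kb upstream of Klf13 was the closest of the 12 to the threshold, with 2400 and 1962 bp at 0 h against 3011 and 3315 bp at 24 h (0.50, SE 0.11, adjusted p = 0.0524).

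Of 25 matched cytokine receptor, signalling and survival genes, 4 were nearest to 6 members, namely Kit and Spry1 with 2 each and Mcl1 and Jak2 with 1. Only the Kit member at 69.3 kb was called (median log2 difference of the 6, -0.29). At Jak2, the kinase of the erythropoietin receptor, the member covered 600 and 620 bp at 0 h against 1409 and 965 bp at 24 h, without overlap and without passing the test (0.76, SE 0.25, adjusted p = 0.139). At Mcl1, which blocks apoptosis, it covered 3980 and 4107 bp at 0 h against 3507 and 1814 bp at 24 h (-0.63, SE 0.31, adjusted p = 0.322). Members were nearest to 2 of 26 red cell membrane and surface genes (Cd44 and Cd36) and to 1 of 13 proliferation genes (Cdk6), and none of these 3 was called. Among the marker lists of other cell types, 1 mast cell gene (Fcer1a) and 1 megakaryocyte gene (Gp9) were nearest to a member each, and no myeloid or lymphoid gene was.

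The called members were also described by sequence, CTCF, distance and H3K4me3 at the nearest TSS, which the length fit did not use, and by merged length. The 55 shorter members held 1.08 AGATAA per kb, against 0.850 in the 22 longer and 0.863 in the 728 not called, and a composite was present in 20 of the shorter (36.4%), 5 of the longer (22.7%) and 189 of those not called (26%). Among the 214 members with a composite 9.35% were shorter, and among the 591 without one 5.92%. The median distance to a TSS was 56.9 kb for the shorter members, 22.3 kb for the longer and 27.2 kb for the rest. At the nearest TSS, H3K4me3 was present in all 10 lists for 22 of the shorter members (40%), 12 of the longer (54.5%) and 436 of the rest (59.9%). CTCF peaks at both times overlapped 11 of the shorter (20%), 2 of the longer (9.09%) and 146 of the rest (20.1%). Merged regions were longer among the called (median 3335 bp for shorter and 3631 bp for longer) than among the rest (2689 bp). Merged length joins the same peaks as covered length, so it is not independent of the calls. Longer regions also leave more room for a composite or a CTCF peak. Per kb, the composite occurred 0.121 times in the shorter, 0.0739 in the longer and 0.0992 in the rest. These are descriptions, and no difference between these sets was tested.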

How the data were processed

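ChIP-seq of H3K27ac and H3K4me3 (2 lists at each of 5 time points) and of CTCF (1 list at 0 and at 24 h) in G1E-ER4 cells was analyzed from the 22 deposited peak lists, grouped by the antibody and hour in the sample titles. Per the submitters' processing notes, reads were aligned with Bowtie2 to mm10. The extract protocol in the labels names a human build, but the positions are those of mm10. For the histone marks, the authors called peaks in each library with MACS, and the MACS version, control and threshold were not given in the sources used here. The deposited score of each peak, assigned by the authors' peak caller, starts at 50 and was judged to be minus 10 times the log10 of a p-value. The score and the length of a peak change with depth and background, which the lists do not hold, so the depth and precision of each sample are unknown, scores were used only as ranks within a list, and intervals cover counting error only.

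Regions were annotated with GENCODE M21, and motifs were counted in the GRCm38 sequence. limma 3.58.1 in R 4.3.3 (lmFit, eBayes with trend) was fitted to log2(covered bp + 200) over regions that had peaks in 2 or more lists, and to the normal score of the score rank over regions with a peak in all 10, with 5 time-point means and Benjamini-Hochberg adjustment over all regions (adjusted p below 0.05). Counts and motifs were computed in Python 3.11.15 with pandas 2.3.3 and pysam 0.24.0. The fits were tested on simulated data.

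The members, gene lists and tests were chosen with earlier results of these data known. Named members were the 8 longer and 8 shorter with the largest difference, the 4 higher and 4 lower in rank, the 6 highest in score rank, the 6 longest, those nearest a listed gene (values for up to 10 per list), the 6 with the highest CTCF score, and the 4 genes nearest to the most members (a tie extended these). Alternatives changed the peaks used, merging, number of lists, overlap rules, pseudocount, scaling, filters, replicate block, lists in the fit and motif window. Fits over regions with a peak in all 10 lists, and the count of members without each list, were chosen after seeing the data.

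Same-numbered lists showed no shared pattern of deviations by region, with correlations between -0.0293 and 0.0168. Such a correlation over regions does not see a shift common to a whole list, so pairing of that kind was not tested.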

Additional observations from a re-analysis of the deposited data

How the results depend on the processing

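Of 110 alternatives of the 9 summary results, 82 stayed within 1.5 times the reported count or within the counting interval. With only the lists at 0 and 24 h in the fit, 9 members were longer and 28 shorter (3.48%, beside 5.27% of all regions), and 0 were higher or lower in score rank by limma (84 and 165 in the reported fit at an unadjusted p below 0.05). Of all 13217 regions, that rank fit called only 2 higher and 5 lower (0.0151% and 0.0378%), so the loss was not particular to the members. With only peaks that reached the pooled median score, 62 regions met the rule, and 4 members were longer, 18 shorter and 26 changed over time. These were 0.497%, 2.24% and 3.23% of members, beside 0.524%, 0.842% and 1.53% of all regions. The Fgf2 member reversed to -3.90 on the log2 scale in that fit. The cause was not tested. Counting H3K4me3 only where it covered 50% of a region gave 1594 members. CTCF at both times overlapped 10.8% with the upper-scoring CTCF peaks and 16.9% with the peak centre inside the region. AGATAA occurred 1.13 times per kb in the middle 1 kb and 0.958 outside repeats. Calls over all regions also moved when a list was left out, so such movement was not particular to the members. Over all regions, longer and shorter calls rose in some of these fits and fell in others, and rank calls fell in each. Regions called changed over the time points rose in number in each, whereas members called changed did not. Leaving out each list in turn gave 12 to 24 longer, 25 to 63 shorter and 26 to 41 changed members, 1 to 10 higher and 5 to 32 lower in rank, and 813 to 886 regions meeting the rule.

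With a replicate block, 20 members were longer, 45 shorter and 26 changed over the time points, and 10 were higher and 30 lower in rank. The length shares were 2.48%, 5.59% and 3.23% of members, beside 2.87%, 2.73% and 4.65% of all regions. The rank shares were 1.24% and 3.73%, beside 0.749% and 1.21%. Same-numbered lists did not deviate together by region, but a shift common to a whole list was not tested. Whether the replicate numbers are a pairing is therefore unknown. Fits over regions with a peak in all 10 lists, chosen after seeing the data, gave 29 longer, 69 shorter and 44 changed members. These were 3.60%, 8.57% and 5.47% of members, beside 2.97%, 2.45% and 2.10% of the regions in that fit.

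Of 424 alternatives for single named members, 317 left the call and direction in place, 106 lost the call and 1 reversed. Of the 8 longer and 8 shorter members named, 3 and 5 kept the call with only the lists at 0 and 24 h, and 0 and 1 with the upper-scoring peaks. Peak lists limit all values, since length and score follow depth, which is unknown, and 2 lists per time point leave the spread poorly known.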
